A study of Mus musculus with 13 samples.

Results

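The Toll-like receptor (TLR) signalling components were 45 named genes, grouped by role into 12 receptors and receptor partners, 12 adaptors, 12 kinases and kinase subunits, 3 transcription factors and 6 inhibitors. For each gene, the ATAC-seq counts of every peak lying within 50 kb of its nearest annotated start site were added, and that sum is called its locus. Irak1, a kinase that MyD88 recruits, had no such peak, which left 44 of the 13874 gene loci in the data. The 44 loci held 164 of the 38620 deposited peaks, 62 of them within 1 kb of a start site and 102 farther away. A locus held 1 to 11 peaks with a median of 3, against a median of 2 over all loci. All 44 loci passed the filter on low counts.

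TLRs are innate immune receptors that recognise microbial molecules at the cell surface or in endosomes. Ligand binding recruits the adaptors MyD88 and TRIF, which pass the signal through IRAK and TRAF proteins to the kinases TAK1, IKK and TBK1, and these activate NF-kB and interferon regulatory factors. Lipopolysaccharide (LPS), a component of the Gram-negative bacterial wall, is sensed by TLR4 with its partners MD-2 and CD14. Microglia, the resident macrophages of the brain, express many TLRs, and in macrophages an earlier dose of LPS is known to alter the response to a later one.

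ATAC-seq measures open chromatin by the insertion of sequencing adapters with a transposase. The 13 libraries came from microglia sorted from brains of 15-week-old male C57BL/6J mice as living cells with high CD11b, intermediate CD45 and no Ly6c, and each library was 1 pool of 2 animals with 40000 cells from each. Mice were injected intraperitoneally at 10 weeks of age and again 5 weeks later with LPS from Escherichia coli O111:B4 (1 mg/kg) or with PBS, and brains were taken 3 hours after the last injection. From 1 week after the first injection they were gavaged for 5 days with BLZ945, a CSF1 receptor inhibitor that depletes microglia (169 mg/kg per day), or with the vehicle 2-hydroxypropyl-beta-cyclodextrin. In LBL (2 pools), mice had LPS, BLZ945 and LPS. In LL (2 pools), they had LPS, vehicle and LPS. In PBL (3 pools), they had PBS, BLZ945 and LPS. In PL (2 pools), they had PBS, vehicle and LPS. In PBP (2 pools), they had PBS, BLZ945 and PBS, and in PP (2 pools) they had PBS, vehicle and PBS. Microglia of LBL, PBL and PBP mice had therefore repopulated the brain after depletion.

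Counts in peaks ranged between 927893 and 2772622 per library. Microglial markers were open throughout: 13 of the 14 listed genes had a tested locus (Fcrls had none), with a median level of 67.7 CPM per kb of peak (CPM are counts scaled to the total of each library and expressed per 1e6). Of 5 oligodendrocyte markers 4 had a tested locus, with a median of 38.4 CPM per kb. LBL, LL and PBL were sorted on 1 instrument (XDP) and PL, PBP and PP on another (Astrios), and every group except PL came from a single isolation day, so instrument, day and group cannot be told apart in most comparisons. The pools of PL came from 2 days and differed most, with a chi-square per degree of freedom of 1.84 over peaks, against 0.974 to 1.14 for pairs of pools in the other groups. PL pool 3_4 had 53.2% of its counts within 1 kb of a start site, against 55.5% to 60.1% in the other 12 libraries. The pools of LBL and those of PP differed by no more than counting error (chi-square per degree of freedom of 0.974 and 1.01), and the labels name them as separate pools, so both were kept. An alternative chosen after seeing the data summed each of these pairs into 1 library. Fewer members were then called in PL against PP and in LL against PP, and the same ones in PBL against PBP. The share of all loci called was smaller in each of these comparisons. The names of the PBL pools 3_4 and 4_5 share an animal number, and the labels do not say whether they share an animal. The tests treated all pools as independent and used a spread shared by all groups. If an animal was shared, p-values of comparisons with PBL could be too small.

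Per kb of peak, TLR pathway loci had a median level of 60.7 CPM over all libraries, within the range that holds 80% of all loci (28.4 to 87.2 CPM per kb, median 49.9). The highest level was 143.6 CPM per kb at Bcl10, which joins Malt1 in a complex that activates NF-kB. Ticam1, the gene of the adaptor TRIF, had 115.5 CPM per kb, Tlr4 97.4 and Irak4, the first kinase recruited by MyD88, 90.7. The lowest was 24.5 CPM per kb at Ikbke, an inducible kinase of IRF3. In an F test of equal means over all 6 groups, 13 of the 44 loci were called at an adjusted p under 0.05 by edgeR's quasi-likelihood test, against 15.7% of all loci. DESeq2 called 5.

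**Figure D1:**
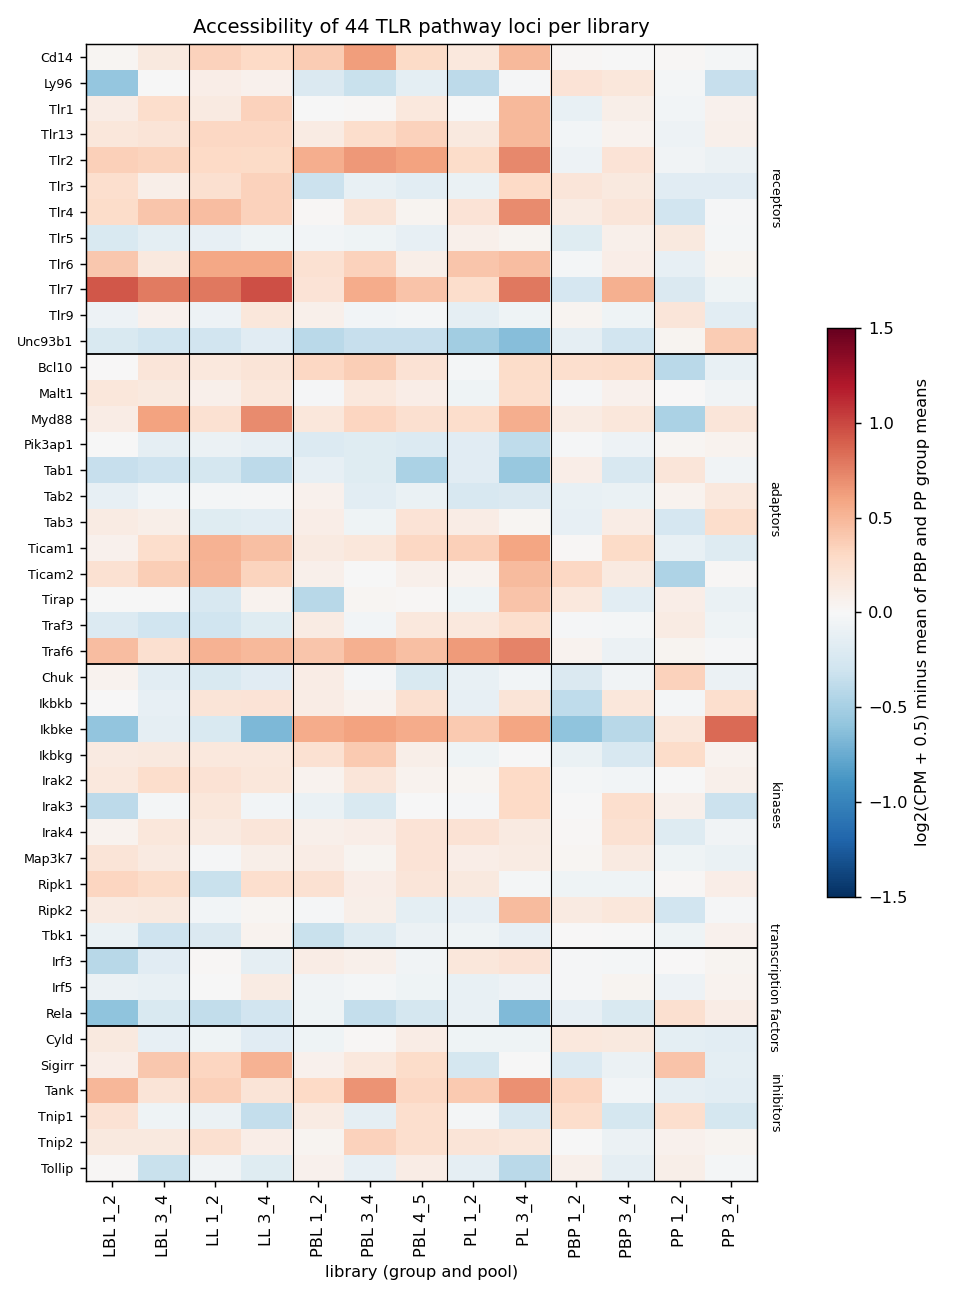
Each row is 1 of the 44 loci, ordered by role, and each column 1 of the 13 libraries. Colour gives log2(CPM + 0.5) minus the mean of the PBP and PP group means. Tlr2 and Traf6 are above their PBS-only mean in all 9 libraries of mice given LPS last, Tlr7 has its highest group means in LBL and LL, and of the kinase rows Ikbke varies most.

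The first comparison asked which components changed in accessibility 3 hours after a first LPS injection. In microglia that had never been depleted (PL against PP), 11 of the 44 loci were called, 8 higher and 3 lower, against 10.6% of all loci called, 6.54% higher and 4.07% lower. The loci that rose were those of 4 receptors (Tlr2, Tlr4, Tlr6 and Tlr7), 3 adaptors (Ticam1, Traf6 and Bcl10) and the inhibitor Tank, and the loci that fell were Unc93b1, Pik3ap1 and Rela. None of the 11 kinase loci with a peak was called by edgeR or by DESeq2. In edgeR's test 2 of them had an unadjusted p under 0.05, against 3410 of all 13734 loci. The median log2 fold change of the 44 loci was 0.14, and that of all loci was close to 0. Without PL pool 3_4, 3 of the 11 calls were kept (Traf6, Tank and Unc93b1), while 2.49% of all loci were called. Without PL pool 1_2, 20 members and 20.5% of all loci were called. Without PP pool 1_2, 5 members and 3.54% of all loci were called, and without PP pool 3_4, 6 members and 4.71%. Isolation day as a term, fitted on PL, PBP and PP alone, gave 18 members and 20.5% of all loci. PL pool 3_4 shared its day with both PP pools, and PL pool 1_2 with both PBP pools. The day term therefore rests on the 2 PL pools, and this fit sets PL pool 3_4 alone against PP. It is not a check apart from the fit without PL pool 1_2.

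In repopulated microglia (PBL against PBP), 4 loci were called, all higher, against 7.47% of all loci called, 5.15% higher and 2.32% lower. They were Tlr2, Traf6, Cd14 and Ikbke. No locus fell in edgeR's test, and DESeq2 called 2, Tlr2 and Traf6. In edgeR's test 10 of the 44 had an unadjusted p under 0.05 in either direction, against 2583 of all 13734 loci. Without PBP pool 1_2 only Traf6 kept its call, and a smaller share of all loci was called. Without either PL pool, which enter through the shared spread alone, more members and a larger share of all loci were called. The 2 comparisons share no library. Of the 11 loci called in PL against PP, 10 had the same sign in PBL against PBP. Of the 4 called in PBL against PBP, 3 had the same sign in PL against PP. The share among all called loci was not computed, so these 2 counts have no background. Over all members 27 of 44 (61.4%) had the same sign in both, against 60.2% of all loci. The difference between the responses of repopulated and never-depleted microglia was called for no member by edgeR or DESeq2, and by edgeR for 0.124% of all loci. In edgeR's test the difference had an unadjusted p under 0.05 for 12 of 44 members, against 1943 of all 13734 loci. Without PL pool 1_2 it was called for 9 members and 8.41% of all loci. The smallest adjusted p was 0.073, at Tlr4.

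**Figure D2:**
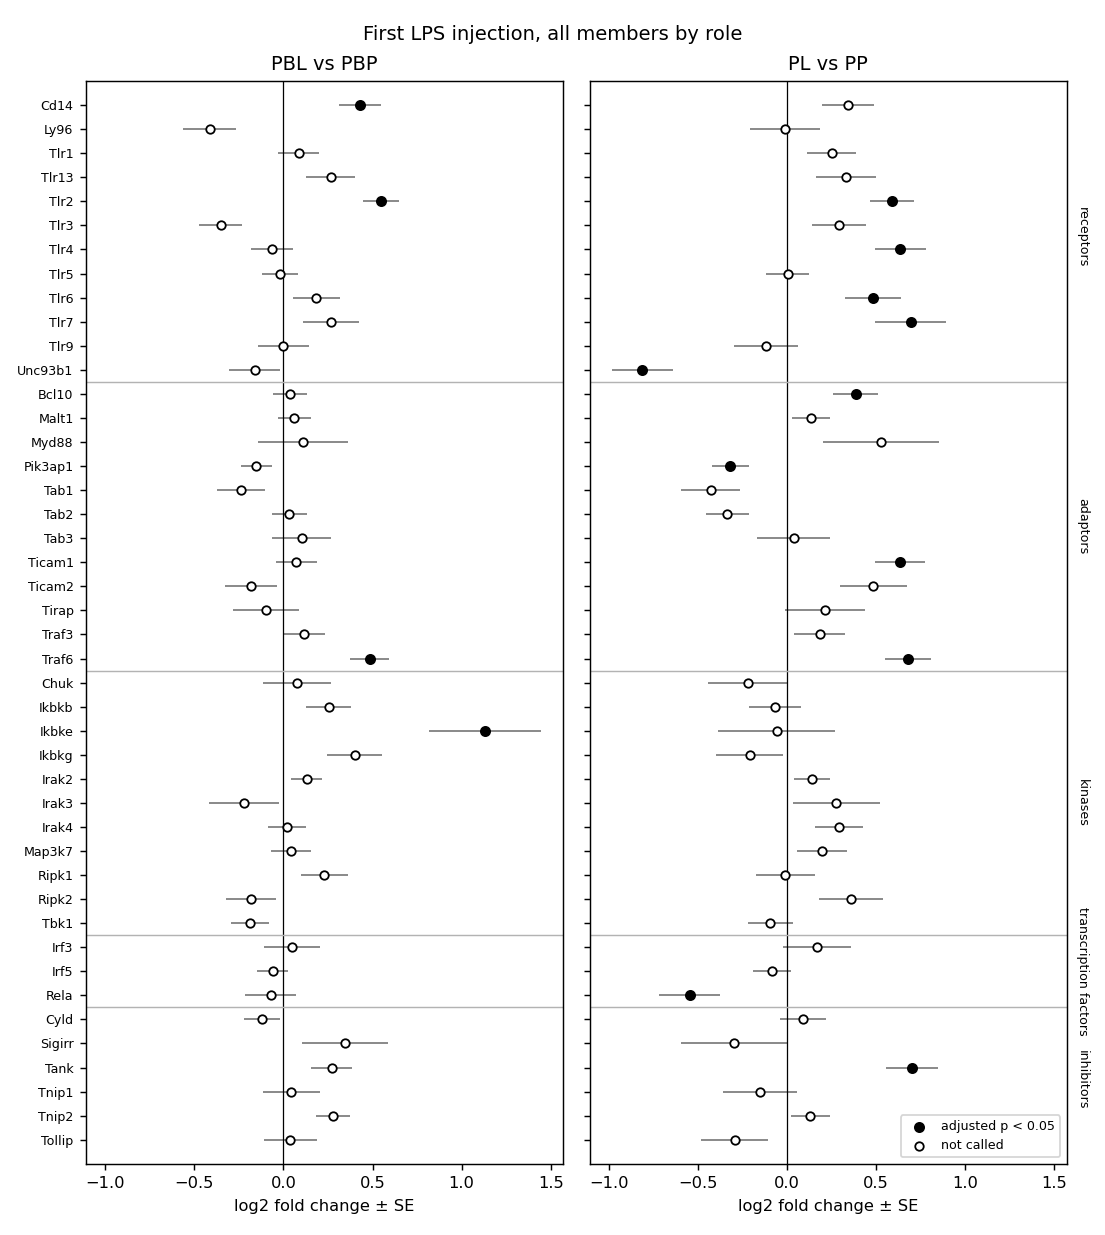
Log2 fold changes with standard errors for the 44 loci in PBL against PBP (left) and PL against PP (right), with roles marked off by lines. Filled points were called at an adjusted p under 0.05: 4 on the left, all above 0, and 11 on the right, 8 above 0 and 3 below.

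When both responses were averaged with equal weight, a test added after the separate results were seen, 14 loci were called, 10 higher and 4 lower, against 15.2% of all loci called, 9.63% higher and 5.6% lower. Among the receptors 6 rose (Tlr2, Tlr4, Tlr6, Tlr7, Tlr13 and Cd14) and Unc93b1 fell. Among the adaptors Traf6 and Ticam1 rose and Tab1 and Pik3ap1 fell, among the inhibitors Tank and Tnip2 rose, and Rela fell. None of the 11 kinase loci was called by edgeR or DESeq2. In edgeR's test 2 of them had an unadjusted p under 0.05, against 3774 of all 13734 loci. Without PL pool 3_4, the calls of Tlr4, Tlr13, Tab1, Rela and Tnip2 were lost, and a smaller share of all loci was called. Tlr13, Rela and Tnip2 each kept their call in 2 of the 13 fits that left out 1 library. In the same libraries the summed level of the 13 microglial marker loci was 1619 to 1624 CPM in PBL and 1582 to 1685 in PL, against 1954 to 2096 in PBP and 1763 to 1791 in PP, and 7 of the 13 were called in PBL against PBP and 3 in PL against PP. The summed level of 5 endothelial and mural marker loci was 227 to 277 CPM in PBL, against 192 in both PBP pools. It was 246 to 323 CPM in PL, against 203 to 239 in PP. Of these 5, 2 were called in PBL against PBP and 1 in PL against PP. The 2 of 5 neuronal marker loci that were tested summed to 33.5 to 41.3 CPM in PBL, against 44.35 to 50.8 in PBP. They summed to 35.9 to 36.3 CPM in PL, against 62.0 to 62.7 in PP, and 0 and 1 of the 2 were called in these comparisons. The 2 of 6 lymphocyte marker loci that were tested summed to 34.0 to 36.9 CPM in PBL and 36.5 to 43.5 in PL, against 27.4 to 29.8 in PBP and 25.2 to 26.9 in PP, and neither was called. The part of these shifts in the results was not tested. The defining monocyte and neutrophil genes Ly6c2, S100a8 and Ly6g had no tested locus, and the 2 of 8 such markers that had one summed to 20.7 to 25.0 CPM in PBL and PL, against 21.5 to 30.6 in PBP and PP. In bulk libraries, a change in the share of cells that are open at a locus cannot be told apart from a change in every cell.

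Tlr2, the receptor for bacterial lipopeptides, was the receptor called in both comparisons. Its locus had 218, 235 and 228 CPM in PBL, against 142 and 173 CPM in PBP, and 181 and 247 CPM in PL, against 144 and 141 CPM in PP. Neither pair of groups overlapped. With 2 or 3 pools a group this also occurred without a call, as for Map3k7, Tbk1, Irf3 and Cyld in PL against PP. The share of all loci without overlap was not computed, so overlap describes the pools and does not support a call. The log2 fold change of the Tlr2 locus was 0.55 ± 0.10 (SE) in PBL against PBP (adjusted p = 5.8e-05). In PL against PP it was 0.59 ± 0.12 (adjusted p = 6.0e-04). The first was not called without PBP pool 1_2 (0.39, adjusted p = 0.083), and the second was not called without PL pool 3_4 (0.34, adjusted p = 0.18).

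The response of Tlr2 lay upstream of the gene and at its promoter. The peak 3421 bp upstream of the start site (chr3:83845188-83845550, mm10) had 23.9, 29.6 and 30.1 CPM in PBL, against 7.93 and 6.79 CPM in PBP, and 14.8 and 25.6 CPM in PL, against 10.5 and 6.99 CPM in PP. Its log2 fold change was 1.93 ± 0.29 in PBL against PBP (adjusted p = 1.1e-07) and 1.22 ± 0.37 in PL against PP (adjusted p = 0.023), the largest of the peaks called at Tlr2 in either comparison. Its levels in the PBP and PP pools rest on few counts. The neighbouring peak 3085 bp upstream rose by 1.57 ± 0.34 in PBL against PBP (adjusted p = 4.1e-04), and had a log2 fold change of 0.71 ± 0.43 in PL against PP, which was not called (adjusted p = 0.34). The promoter peak (chr3:83841365-83841904) rose in both, by 0.73 ± 0.20 in PBL against PBP and 0.83 ± 0.27 in PL against PP (adjusted p = 0.0067 and 0.040). A peak 21059 bp upstream rose by 0.66 ± 0.20 in PL against PP (adjusted p = 0.026) and was not called in PBL against PBP. None of the 3 peaks of Tlr2 on the gene side of the promoter was called in either comparison.

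Tlr4, the LPS receptor, had 108, 122 and 109.9 CPM in PBL, against 117 and 121 CPM in PBP, which overlapped. It had 124 and 175 CPM in PL, against 87.3 and 105 CPM in PP, with no overlap. The log2 fold change was -0.06 ± 0.12 in PBL against PBP (adjusted p = 0.85) and 0.63 ± 0.14 in PL against PP (adjusted p = 0.0014), and the second was not called without PL pool 3_4 (0.35, adjusted p = 0.27) or PP pool 1_2. The difference between the 2 responses was -0.70 ± 0.19 and was not called (adjusted p = 0.073). The promoter peak (chr4:66827369-66828105) rose by 0.48 ± 0.16 in PL against PP (adjusted p = 0.044). The larger fold was at a small peak 510 bp after the start (chr4:66828712-66828975), with 17.2 and 20.8 CPM in PL, against 4.21 and 6.99 CPM in PP (log2 fold change 1.75 ± 0.41, adjusted p = 0.0023). The PP pools had 927893 and 990220 counts in all peaks, so their levels at this peak rest on few counts.

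Cd14, the co-receptor that hands LPS to the TLR4 complex, had 121, 143 and 113 CPM in PBL, against 93.8 and 91.9 CPM in PBP (log2 fold change 0.43 ± 0.12, adjusted p = 0.012), with no overlap, and was not called without PBP pool 1_2, PBP pool 3_4 or PBL pool 3_4 (adjusted p up to 0.18). It had 103 and 129.8 CPM in PL, against 94.0 and 90.4 CPM in PP, a difference of 0.34 ± 0.15 that was not called (adjusted p = 0.13). Of the 3 Cd14 peaks, the promoter peak was called, with 56.2, 72.2 and 55.0 CPM in PBL, against 34.8 and 34.7 CPM in PBP (log2 fold change 0.82 ± 0.17, adjusted p = 2.8e-04), and it kept its call without each library in turn. Ly96, which encodes MD-2, had 53.1, 48.8 and 55.8 CPM in PBL, against 71.0 and 69.3 CPM in PBP, and the difference of -0.41 ± 0.15 was not called (adjusted p = 0.081).

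The endosomal receptors did not move as a group. Tlr7, a receptor for single-stranded RNA, had 90.7 and 131 CPM in PL, against 64.9 and 72.5 CPM in PP (log2 fold change 0.69 ± 0.20, adjusted p = 0.018), and it was not called without PL pool 3_4 (0.39, adjusted p = 0.33) or without either PP pool. It had 87.1, 111 and 102 CPM in PBL, against 63.4 and 109.6 CPM in PBP, which overlapped, since the PBP pools were far apart. Tlr3, the receptor for double-stranded RNA, was not called in either comparison, with log2 fold changes of -0.35 ± 0.12 in PBL against PBP (adjusted p = 0.060) and 0.29 ± 0.15 in PL against PP (adjusted p = 0.22). Tlr9, which binds CpG DNA, had 59.1 to 64.2 CPM in PBL and 55.4 to 58.4 CPM in PL, against 58.0 to 62.7 CPM in PBP and 54.7 to 69.4 CPM in PP, and overlapped in both comparisons. Tlr13, which binds bacterial ribosomal RNA, had 69.4 to 81.3 CPM in PBL and 70.6 to 89.9 CPM in PL, against 62.1 to 66.1 CPM in PBP and 60.4 to 67.3 CPM in PP, with no overlap and no call (adjusted p = 0.29 and 0.20). Unc93b1, the chaperone that carries these receptors to endosomes, had 50.4 and 46.5 CPM in PL, against 75.0 and 94.6 CPM in PP, with no overlap (log2 fold change -0.81 ± 0.17, adjusted p = 6.2e-04; -0.76 without PL pool 3_4, adjusted p = 0.015; -0.63 without PP pool 3_4, adjusted p = 0.086). The PP pools also had 62.0 to 62.7 CPM over 2 neuronal marker loci, against 30.7 to 50.8 CPM in the other groups, whose part in the result was not tested. In PBL Unc93b1 had 54.6, 57.1 and 56.9 CPM, against 65.9 and 59.7 CPM in PBP, with no overlap and a difference that was not called (-0.16 ± 0.14, adjusted p = 0.63). Of the other surface receptors, Tlr6 rose in PL against PP (0.48 ± 0.16, adjusted p = 0.037; 0.45 without PL pool 3_4, adjusted p = 0.19, and likewise lost without either PP pool), and Tlr1 and Tlr5 were called in neither comparison.

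Among the adaptors, Traf6, the ubiquitin ligase between the IRAK kinases and TAK1, had 131, 142 and 134 CPM in PBL, against 101 and 91.9 CPM in PBP, and 152 and 163 CPM in PL, against 101 and 96.7 CPM in PP. No groups overlapped. The log2 fold change was 0.48 ± 0.11 in PBL against PBP (adjusted p = 0.0014) and 0.68 ± 0.13 in PL against PP (adjusted p = 1.9e-04), and 0.62 without PL pool 3_4 (adjusted p = 0.0069). The first was not called without PBP pool 3_4 (adjusted p = 0.068). Of its 4 peaks 1 was called, 48512 bp downstream of the Traf6 start (chr2:101732727-101733342), which is close to the limit of 50 kb and lies in an intron of the neighbouring gene Prr5l. That peak had 56.2, 82.4 and 63.1 CPM in PBL, against 32.3 and 29.4 CPM in PBP, and 61.7 and 78.8 CPM in PL, against 31.6 and 28.0 CPM in PP. Its log2 fold changes were 1.13 ± 0.18 (adjusted p = 3.0e-07) and 1.25 ± 0.22 (adjusted p = 1.3e-05), and both calls held without each library in turn. With peaks within 10 kb alone the Traf6 locus had a change of -0.21 in PBL against PBP (adjusted p = 0.67).

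Ticam1 had 127 and 150.1 CPM in PL, against 91.7 and 87.2 CPM in PP (log2 fold change 0.63 ± 0.14, adjusted p = 0.0012; 0.50 without PL pool 3_4, adjusted p = 0.063). In PBL it had 109 to 124 CPM, which overlapped 101 and 122 CPM in PBP. Myd88, the adaptor of most TLRs, had a single peak with 17.7 to 19.7 CPM in PBL and 18.9 and 23.2 CPM in PL, against 17.1 and 17.7 CPM in PBP and 11.2 and 17.9 CPM in PP, and was not called in either comparison (adjusted p = 0.89 and 0.31). The Tirap, Ticam2, Traf3, Tab1, Tab2, Tab3 and Malt1 loci were not called in either. Bcl10 rose in PL against PP (0.38 ± 0.13, adjusted p = 0.037), with 151 and 188 CPM in PL, against 116 and 143 CPM in PP, but its PBP pools already had 184 and 186 CPM, and the change was not called without PL pool 3_4 (0.21, adjusted p = 0.54) or PP pool 1_2. Pik3ap1, an adaptor that links TLRs to PI3 kinase, fell by 0.32 ± 0.10 on the log2 scale (adjusted p = 0.032), with 249 and 216 CPM in PL, against 288 and 292 CPM in PP, and was not called without PL pool 3_4 (-0.22, adjusted p = 0.33) or either PP pool. Tab1, a TAK1-binding protein that fell in the average of both responses (-0.33, adjusted p = 0.022), had 63.5 to 81.2 CPM in PBL and 59.6 and 78.7 CPM in PL, against 75.0 and 95.0 CPM in PBP and 85.1 and 100.7 CPM in PP.

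Of the kinases, Ikbke was called in PBL against PBP, with 16.2, 16.7 and 16.3 CPM in PBL, against 6.97 and 8.06 CPM in PBP (log2 fold change 1.13 ± 0.31, adjusted p = 0.012). The PBP pools had 1653240 and 1316768 counts in all peaks, so their levels at this locus rest on few counts. Ikbke was not called without either PBP pool. It had 14.5 and 16.7 CPM in PL, against 12.3 and 20.0 CPM in PP, which overlapped (-0.06 ± 0.33). Tbk1, the related kinase that is always present, had changes of -0.19 ± 0.11 and -0.09 ± 0.13 and was not called (adjusted p = 0.35 and 0.70). The Irak2, Irak3, Irak4, Map3k7, Chuk, Ikbkb, Ikbkg, Ripk1 and Ripk2 loci were not called in either comparison. Of these, Irak4 had the lowest p in PL against PP, with 131.0 and 124 CPM in PL, against 98.5 and 109 CPM in PP (0.29, adjusted p = 0.16). Irak2 and Irak3, a kinase and a pseudokinase of the same family, had 304 to 367 and 31.5 to 39.3 CPM in PL, against 295 to 313 and 25.2 to 33.6 CPM in PP. Ripk2, a kinase best known below NOD receptors, had 60.5 and 91.7 CPM in PL, against 53.7 and 65.2 CPM in PP. Single Irak2 peaks were called. A peak in the gene (chr6:113677318-113677731) had 34.4 and 50.1 CPM in PL, against 23.1 and 9.98 CPM in PP (log2 fold change 1.37 ± 0.28, adjusted p = 2.3e-04; 1.06 without PL pool 3_4, adjusted p = 0.053, and not called without PP pool 3_4).

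Rela, the NF-kB subunit p65, was the transcription factor that changed, with 73.7 and 50.03 CPM in PL, against 94.0 and 86.2 CPM in PP (log2 fold change -0.55 ± 0.17, adjusted p = 0.026; -0.29 without PL pool 3_4, adjusted p = 0.47, and not called without either PP pool). In PBL it had 62.0 to 76.0 CPM, overlapping 72.9 and 67.7 CPM in PBP. Irf3 and Irf5 were not called, and Irf5, a driver of inflammatory cytokine genes, had 222 to 229 CPM in PBL and 216 to 220.3 CPM in PL, against 230.0 to 240.2 CPM in PBP and 222 to 241 CPM in PP. Of the inhibitors, Tank, a TRAF-binding protein that restrains TRAF6 and associates with TBK1, had 152 and 186 CPM in PL, against 105 and 103 CPM in PP (log2 fold change 0.70 ± 0.14, adjusted p = 5.2e-04; 0.54 without PL pool 3_4, adjusted p = 0.035), and kept its call without each library in turn. It had 142, 184 and 143 CPM in PBL, overlapping 145 and 112 CPM in PBP (0.27 ± 0.12, adjusted p = 0.16). The Tollip, Sigirr, Tnip1, Tnip2 and Cyld loci were not called in either comparison, Tnip2 being nearest in PBL against PBP (0.28 ± 0.09, adjusted p = 0.053). Tnip1, which with A20 restrains NF-kB, had 49.2 to 64.7 CPM in PBL and 45.9 and 52.9 CPM in PL, against 45.1 and 65.3 CPM in PBP and 45.2 and 64.9 CPM in PP, with overlap in both.

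Over single peaks, 16 of 161 tested member peaks were called in PL against PP, 12 higher and 4 lower, against 7.46% of all peaks. In PBL against PBP 12 were called, 11 higher and 1 lower, against 9.96%. Of the member peaks within 1 kb of a start site, 8 of 62 were called in PL against PP, against 6.89% of all such peaks, and 7 of 62 in PBL against PBP, against 4.49%. Of those farther away, 8 of 99 were called in PL against PP, against 7.79% of all such peaks, and 5 of 99 in PBL against PBP, against 13.1%. Tank had peaks at 2 starts. The peak at its downstream start (chr2:61592881-61594032) had 121 and 129.9 CPM in PL, against 74.7 and 79.8 CPM in PP (log2 fold change 0.70 ± 0.15, adjusted p = 7.4e-04; not called without PP pool 1_2, adjusted p = 0.052). The weaker peak at its upstream start (chr2:61578396-61578675) was called in PBL against PBP (1.11 ± 0.37, adjusted p = 0.037) and rests on few counts. It had 7.02, 16.7 and 10.3 CPM in PBL, against 6.10 and 4.53 CPM in PBP. The 1 peak that fell in PBL against PBP was in an Irak2 intron (chr6:113681189-113681705, -0.60 ± 0.18, adjusted p = 0.020) and was not called without either PBP pool or without PBL pools 1_2 or 4_5. In PL against PP the peaks that fell with the lowest p were the Unc93b1 promoter (-0.92), the promoter of Tab2, another TAK1-binding protein (-0.68; -0.50 without PL pool 3_4, adjusted p = 0.21), and a peak 3001 bp into Pik3ap1 (-1.07; -0.87 without PL pool 3_4, adjusted p = 0.18).

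The promoter windows of 5 starts are shown, picked from those that overlap peaks of loci called above. They belong to Tlr2, Tank and Ticam1, which rose, and Rela, which fell. The upstream Tank window overlaps its peak over 240 of its bases, and the other 4 lie wholly in theirs. Each runs 250 bases before to 50 after a RefSeq start (GRCm38.p6, 5′ to 3′ on the gene's strand), and capitals mark matches on either strand to 4 motifs: the NF-kB consensus, the AP-1 motif TGANTCA, the IRF motif AANNGAAA and the PU.1 motif GAGGAA. The windows are Tlr2 at chr3:83841559-83841858 (minus strand), the upstream Tank start at chr2:61578336-61578635 (plus), the downstream Tank start at chr2:61592902-61593201 (plus), Ticam1 at chr17:56276718-56277017 (minus) and Rela at chr19:5637291-5637590 (plus).
Tlr2: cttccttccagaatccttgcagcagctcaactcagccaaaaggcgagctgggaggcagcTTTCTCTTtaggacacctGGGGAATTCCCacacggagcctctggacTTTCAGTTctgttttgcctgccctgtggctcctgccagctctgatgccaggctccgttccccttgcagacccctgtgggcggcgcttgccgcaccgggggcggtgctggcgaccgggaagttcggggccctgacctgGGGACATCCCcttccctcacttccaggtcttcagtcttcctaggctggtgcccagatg
Tank upstream: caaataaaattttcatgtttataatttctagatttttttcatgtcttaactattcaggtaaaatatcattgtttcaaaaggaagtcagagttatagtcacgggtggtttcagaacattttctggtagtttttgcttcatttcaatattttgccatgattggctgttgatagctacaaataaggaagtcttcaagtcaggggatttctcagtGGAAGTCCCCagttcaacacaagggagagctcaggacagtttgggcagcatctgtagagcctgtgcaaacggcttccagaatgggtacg
Tank downstream: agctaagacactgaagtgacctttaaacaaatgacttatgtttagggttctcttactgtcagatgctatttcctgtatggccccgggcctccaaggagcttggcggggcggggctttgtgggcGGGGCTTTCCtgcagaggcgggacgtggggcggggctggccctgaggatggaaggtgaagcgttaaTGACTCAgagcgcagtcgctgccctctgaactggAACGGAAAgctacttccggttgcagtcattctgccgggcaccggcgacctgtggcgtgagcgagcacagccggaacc
Ticam1: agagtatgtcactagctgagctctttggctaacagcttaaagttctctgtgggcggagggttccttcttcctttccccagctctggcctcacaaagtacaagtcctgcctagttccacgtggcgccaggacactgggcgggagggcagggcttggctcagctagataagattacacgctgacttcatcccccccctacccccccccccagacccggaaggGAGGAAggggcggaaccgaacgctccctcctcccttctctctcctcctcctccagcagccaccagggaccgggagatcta
Rela: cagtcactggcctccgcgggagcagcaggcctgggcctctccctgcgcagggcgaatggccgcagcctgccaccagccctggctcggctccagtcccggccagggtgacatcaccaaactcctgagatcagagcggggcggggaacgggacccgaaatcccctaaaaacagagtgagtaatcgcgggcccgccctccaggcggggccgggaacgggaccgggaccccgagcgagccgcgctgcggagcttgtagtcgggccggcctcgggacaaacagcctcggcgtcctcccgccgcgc
The Tlr2 window held 3 matches to the NF-kB consensus, at -173, -172 and -8 from the start, of which the first 2 overlap in 1 run of capitals, and 2 IRF matches. Both Tank windows held an NF-kB match (-39 at the upstream start and -127 at the downstream start), and the downstream one also held an AP-1 match at -61 and an IRF match at -27. Ticam1 held a PU.1 match at -30, and Rela held none of the 4. Other loci called above had windows over tested peaks that are not shown. Of those that rose, Tlr6 held none of the 4, Bcl10 an NF-kB match at -241 and Traf6 2 PU.1 matches. Tlr13 held a PU.1 match at -83, and Tnip2 an IRF match at -180 and a PU.1 match at -234. Pik3ap1, which fell, held a PU.1 match at -11. Of the 45 genes, 34 had a window in the RefSeq table and 30 had one that overlapped a tested peak. An NF-kB match lay in 7 of these 30 (23.3%), against 8.46% of all 32817 windows. The 2 shares differ in unit and set. Members are counted by gene, with 32 windows over tested peaks, while the background counts single windows with no such filter. AP-1 matches lay in 10.0% against 7.81%, IRF matches in 23.3% against 23.9%, and PU.1 matches in 33.3% against 28.3%. The windows of members held a median of 18 CpG dinucleotides, against 7 in all windows, so their base composition differs, and a match describes letters and not binding.

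The next comparison asked whether an earlier LPS injection changed the state of the pathway 3 hours after a second one. In LL against PL, no member locus was called by edgeR (7 at an unadjusted p under 0.05; DESeq2 called 0), against 0.0437% of all loci. In LBL against PBL, none was called either (8 at an unadjusted p under 0.05; DESeq2 called 0), against 1.21% of all loci. Without PL pool 1_2, 3 members were called in LL against PL (1.76% of all loci) and 3 in LBL against PBL (2.78%). The difference between these effects in repopulated and never-depleted microglia was called by edgeR for no member (2 at an unadjusted p under 0.05; DESeq2 called 0) and for 0.0% of all loci. Without PL pool 1_2, it was called for Tlr4 and for 0.776% of all loci.

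When both were averaged with equal weight, again a test added after the separate results were seen, 4 loci were called, 1 higher and 3 lower, against 1.75% of all loci called, 0.939% higher and 0.815% lower. Ikbke, Traf3 and Tlr2 fell in mice with an earlier LPS injection, and Tlr7 rose. DESeq2 called 0 members in this average and 0.233% of all loci. In the same libraries the 13 microglial marker loci summed to 1802 to 1955 CPM in LBL and 1821 to 1868 in LL, against 1619 to 1624 in PBL and 1582 to 1685 in PL. The 2 lymphocyte marker loci summed to 25.7 to 29.0 CPM in LBL and 26.4 to 31.4 in LL, against 34.0 to 36.9 in PBL and 36.5 to 43.5 in PL. The 1 tested astrocyte marker locus of 5 had 8.76 to 12.7 CPM in LBL and 10.6 to 11.9 in LL, against 14.8 to 18.7 in PBL and 16.1 to 17.6 in PL. The part of these shifts in the results was not tested. Without PL pool 3_4, Tlr2 was lost, Ikbke, Traf3 and Tlr7 were kept and Tlr3 was gained. The Tlr2 locus (-0.25 ± 0.07, adjusted p = 0.044) kept its call in 3 of 13 fits that left out 1 library, with adjusted p up to 0.39. LL and PL were sorted on different instruments, LBL and PBL on the same one, and all on separate days, so the instrument cannot be told apart from the effect in LL against PL, nor the day in either.

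Ikbke had 7.06 and 9.86 CPM in LBL, against 16.2, 16.7 and 16.3 CPM in PBL, and 9.21 and 6.61 CPM in LL, against 14.5 and 16.7 CPM in PL. Neither pair of groups overlapped, and LBL and LL lay at the level of PBP (6.97 and 8.06 CPM), while PP had 12.3 and 20.0 CPM. The low levels in LBL, LL and PBP rest on few counts. The separate log2 fold changes were -0.92 ± 0.29 in LBL against PBL (adjusted p = 0.099) and -1.0 ± 0.31 in LL against PL (adjusted p = 0.31), and their average was -0.96 ± 0.21 (adjusted p = 0.0056). The average was -0.90 without PL pool 3_4 (adjusted p = 0.018) and was not called without LL pool 3_4 or LBL pool 1_2 (adjusted p up to 0.083).

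Traf3, a TRAF protein that couples TRIF to TBK1, had 81.9 and 76.7 CPM in LBL, against 103, 92.1 and 106 CPM in PBL, and 76.9 and 83.3 CPM in LL, against 106 and 113 CPM in PL. Again neither pair overlapped, and LBL and LL were also below PBP (93.1 and 92.7 CPM) and PP (103 and 90.4 CPM). The average change was -0.40 ± 0.09 (adjusted p = 0.0039). It was -0.37 without PL pool 3_4 (adjusted p = 0.0088), and it lost its call without LBL pool 3_4 (adjusted p = 0.063). Peaks 5874 and 1566 bp upstream of the start were called, with averages of -0.52 ± 0.14 and -0.57 ± 0.16 (adjusted p = 0.024 and 0.034). Both lie in the neighbouring gene 4930595D18Rik. With peaks within 1 kb alone the Traf3 locus was not called.

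The upstream Tlr2 peak was the member peak with the lowest p in the average. It had 14.3 and 13.2 CPM in LBL, against 23.9, 29.6 and 30.1 CPM in PBL, and 11.0 and 12.1 CPM in LL, against 14.8 and 25.6 CPM in PL. After an earlier LPS injection it stood between the level after a first injection and that of PBS-only microglia. The 4 PBS-only pools had 6.79 to 10.5 CPM, which rest on few counts. The change was -1.05 ± 0.24 in LBL against PBL (adjusted p = 0.0043) and -0.82 ± 0.27 in LL against PL, which was not called (adjusted p = 0.29). The average was -0.93 ± 0.18 (adjusted p = 3.2e-04), and was not called without PL pool 3_4 (-0.71, adjusted p = 0.056). LBL against PBL was not called without either LBL pool (adjusted p up to 0.17). At the promoter peak the average was -0.54 ± 0.14 (adjusted p = 0.015), with 26.6 and 31.0 CPM in LBL, against 42.5 to 46.4 CPM in PBL, and 21.96 and 26.6 CPM in LL, against 27.3 and 41.5 CPM in PL.

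Cd14 followed this pattern in repopulated microglia. Its promoter peak had 40.3 and 40.6 CPM in LBL, against 55.0 to 72.2 CPM in PBL (-0.60 ± 0.16, adjusted p = 0.026), with no overlap, and was not called without PBL pool 3_4 or either LBL pool (adjusted p up to 0.25). In never-depleted microglia it had 53.4 and 49.9 CPM in LL, against 42.7 and 52.7 CPM in PL, which overlapped (0.10 ± 0.17, adjusted p = 0.93). The difference between these effects was called at no member peak by edgeR or DESeq2, and 14 had an unadjusted p under 0.05 in edgeR's test. The share of all peaks at an unadjusted p under 0.05 was not computed, so such counts of peaks have no background. The upstream Tank peak, which rests on few counts, had 5.20 and 6.09 CPM in LBL, against 7.02 to 16.7 CPM in PBL, and 2.00 and 3.62 CPM in LL, against 4.74 and 9.59 CPM in PL. Its average was -1.17 ± 0.29 (adjusted p = 0.011), and was not called without PL pool 3_4 (-0.87, adjusted p = 0.23) or without PBL pool 3_4, LL pool 1_2 or LBL pool 1_2.

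Tlr7 moved the other way. Its locus had 145 and 130.3 CPM in LBL, against 87.1, 111 and 102 CPM in PBL, and 131 and 148 CPM in LL, against 90.7 and 131 CPM in PL. LBL lay wholly above PBL, and the lowest LL pool was level with the highest PL pool. The average was 0.38 ± 0.10 (adjusted p = 0.034), and 0.53 without PL pool 3_4 (adjusted p = 1.1e-05). It was not called without any 1 pool of LBL or LL, without PL pool 1_2 or without PBL pool 4_5 (adjusted p up to 0.20). Of its 7 peaks 1 was called, a peak 947 bp after the start (chrX:167328980-167329496), which had 22.1 and 19.3 CPM in LBL, against 11.6 to 14.7 CPM in PBL, and 21.0 and 17.3 CPM in LL, against 11.9 and 5.86 CPM in PL, while the PBP pools were at 7.32 and 21.1 CPM (average 0.86 ± 0.20, adjusted p = 0.0043; 0.64 without PL pool 3_4, adjusted p = 0.076).

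Over all member peaks, 8 of 161 were called in the averaged effect of earlier LPS, 1 higher and 7 lower, against 2.45% of all peaks. In the averaged response to a first LPS injection 25 were called, 19 higher and 6 lower, against 15.5%. Of the separate comparisons, LBL against PBL called the Tlr2 and Cd14 peaks described above, 2 of 161, against 1.9% of all peaks. LL against PL called 0 of 161 by edgeR (15 at an unadjusted p under 0.05; DESeq2 called 0), against 0.064% of all peaks. DESeq2 called 0 of 161 in LBL against PBL and in the average. In contrast to the upstream Tlr2 peak, the peak in Prr5l assigned to Traf6 had 62.4 and 54.8 CPM in LBL and 62.9 and 55.5 CPM in LL, within or near the range of PBL and PL and above all 4 PBS-only pools, and its average effect of earlier LPS was -0.24 ± 0.11 (adjusted p = 0.27).

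**Figure D3:**
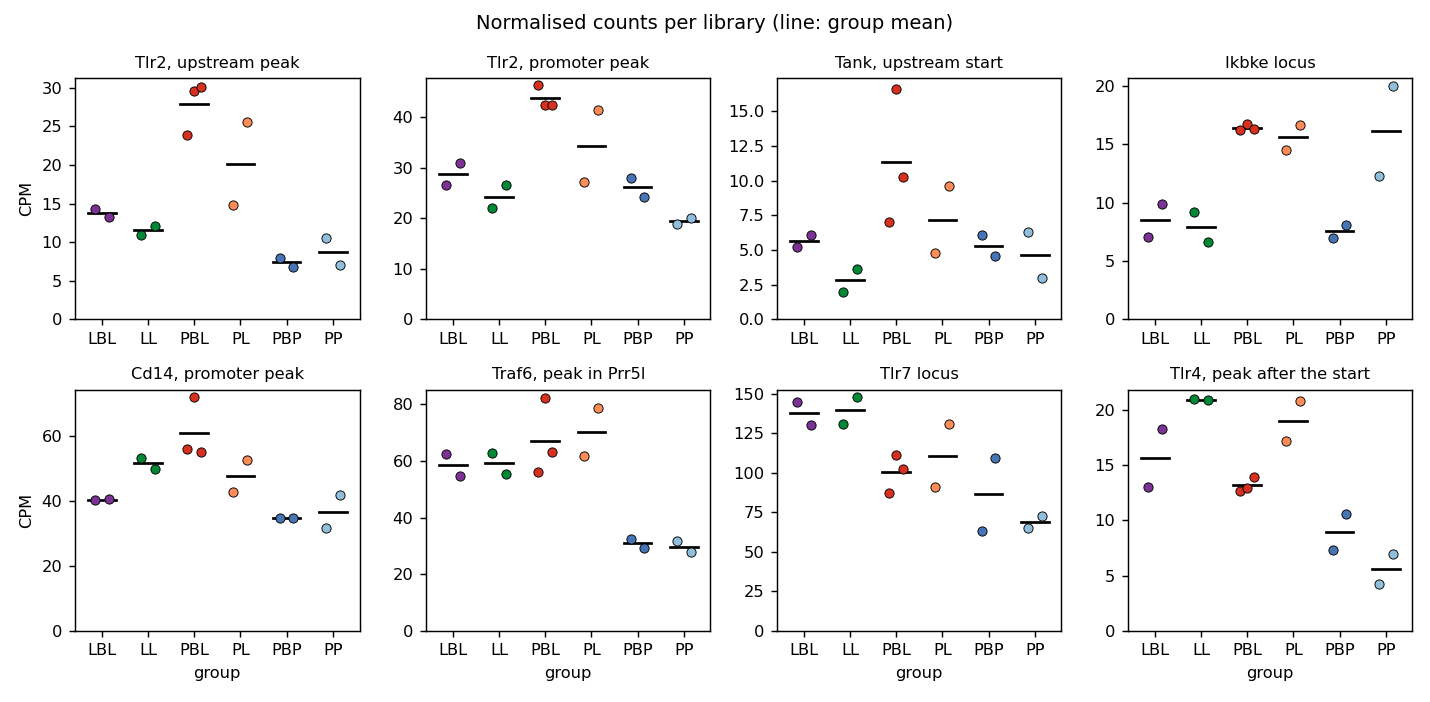
CPM per library in each of the 6 groups for 8 loci or peaks, with group means as lines. In the upper row the PBL points lie above the LBL points in all 4 panels. The Traf6 peak is at 54.8 CPM or more in all 9 libraries that had LPS last and at 32.3 CPM or less in the 4 PBS-only libraries, and the Tlr7 group means are highest in LBL and LL.

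**Figure D4:**
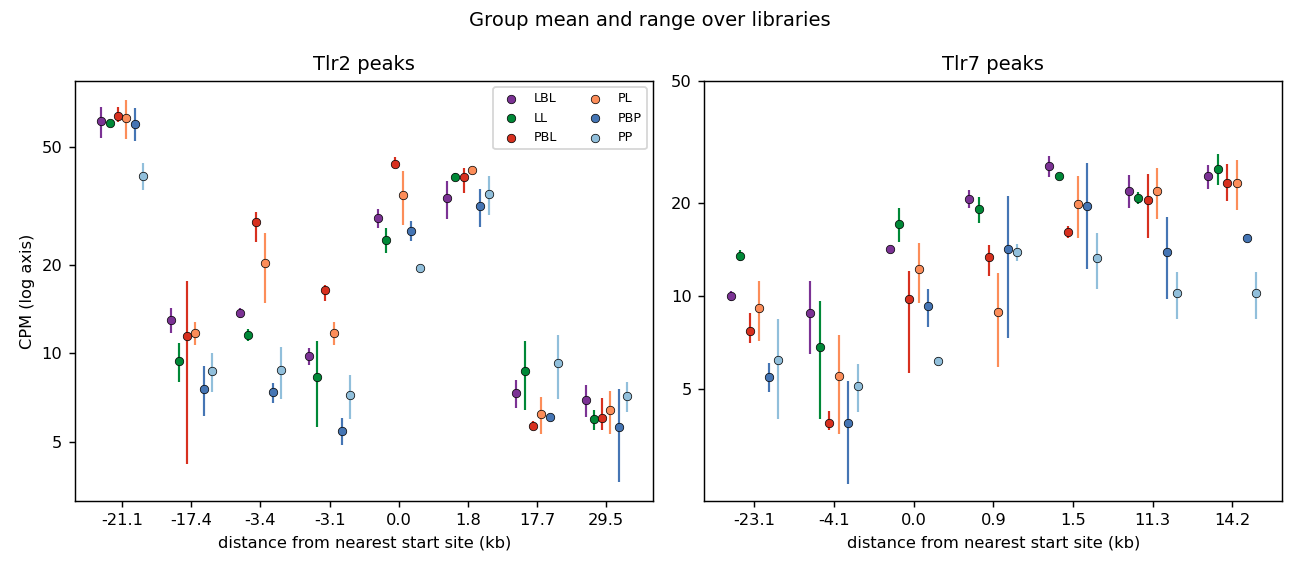
Group mean CPM (points) and range over libraries (lines) on a log axis for each peak of Tlr2 (left) and Tlr7 (right), placed in order of distance from the nearest start site. At Tlr2 the peak 3.4 kb upstream separates PBL from every LBL, LL, PBP and PP library, whereas the peak 1.8 kb inside the gene overlaps between groups. At Tlr7 LBL and LL have the 2 highest means in 6 of the 7 peaks.

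Against microglia that had only PBS, mice given LPS at both times had 9 called member loci without depletion (LL against PP), 8 higher and 1 lower, against 8.73% of all loci, 5.81% higher and 2.92% lower. This comparison shares the PP pools with PL against PP. The 5 endothelial and mural marker loci summed to 256 to 264 CPM in LL, against 203 to 239 in PP, and the 2 neuronal marker loci to 37.9 to 40.5 CPM in LL, against 62.0 to 62.7 in PP. The 1 tested astrocyte marker locus had 10.6 to 11.9 CPM in LL, against 14.5 to 25.2 in PP. The 4 tested oligodendrocyte marker loci summed to 346 to 360 CPM in LL, against 296 to 320 in PP. The part of these shifts in the result was not tested. Tlr7 rose most, with 131 and 148 CPM in LL, against 64.9 and 72.5 CPM in PP (log2 fold change 1.02 ± 0.18, adjusted p = 2.1e-04). Ticam1 had 144 and 136 CPM in LL, against 91.7 and 87.2 CPM in PP (0.64 ± 0.14, adjusted p = 8.6e-04). Both kept their calls without each library in turn. Tlr6 had 106 in both LL pools, against 64.9 and 72.5 CPM in PP (0.62 ± 0.15, adjusted p = 0.0042), Traf6 had 139.8 and 137 CPM in LL, against 101 and 96.7 CPM in PP (0.48, adjusted p = 0.010), and Bcl10 had 172 and 177 CPM in LL, against 116 and 143 CPM in PP (0.43, adjusted p = 0.017). Ticam2, the adaptor TRAM, and Tlr3 also rose. Tlr4 had 147 and 136 CPM in LL (0.55 ± 0.14, adjusted p = 0.0061). All calls but those of Tlr7 and Ticam1 were lost without PP pool 1_2. Fewer members and a smaller share of all loci were called without any 1 pool of PP or LL. Rela fell, with 61.2 and 65.2 CPM in LL, against 94.0 and 86.2 CPM in PP (-0.51 ± 0.16, adjusted p = 0.038). Of the member peaks 13 were called, 11 higher and 2 lower, against 6.13% of all peaks. The Tlr4 peak inside the gene had the lowest p, with 21.0 and 20.9 CPM in LL, against 4.21 and 6.99 CPM in PP (1.88 ± 0.39, adjusted p = 4.9e-04). It was not called by DESeq2 or without PP pool 1_2, and the PP levels rest on few counts. The 2 that fell were the promoters of Rela (-0.59) and Unc93b1 (-0.61), neither of which was called without either PP pool.

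After repopulation (LBL against PBP), 1 locus was called, and it was higher, against 4.29% of all loci, 3.71% higher and 0.575% lower. It was Tlr7, with 145 and 130.3 CPM in LBL, against 63.4 and 109.6 CPM in PBP (0.70 ± 0.16, adjusted p = 0.0056), and it was not called without PBP pool 1_2 (0.32, adjusted p = 0.50) or LBL pool 1_2. DESeq2 called 0 members. The PBP pools are shared with PBL against PBP. The 5 endothelial and mural marker loci summed to 254 to 259 CPM in LBL, against 192 in both PBP pools. The 2 neuronal marker loci summed to 30.7 to 34.6 CPM in LBL, against 44.35 to 50.8 in PBP. The 1 tested astrocyte marker locus had 8.76 to 12.7 CPM in LBL, against 19.0 to 21.0 in PBP. What part these shifts had in the result was not tested. Of the member peaks 1 was called, against 4.82% of all peaks: the peak in Prr5l assigned to Traf6, with 62.4 and 54.8 CPM in LBL, against 32.3 and 29.4 CPM in PBP (0.91 ± 0.20, adjusted p = 7.4e-04).

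The last comparisons asked what depletion and repopulation alone changed. In PBP against PP no member locus was called by edgeR (9 at an unadjusted p under 0.05; DESeq2 called 0), against 0.116% of all loci. Bcl10 was nearest, with 184 and 186 CPM in PBP, against 116 and 143 CPM in PP (0.51 ± 0.13, adjusted p = 0.054), and its promoter peak was called, the 1 member peak that was (0.59 ± 0.13, adjusted p = 0.018, against 0.16% of all peaks), though not without PP pool 1_2 or either PBP pool. Without either PL pool, the Bcl10 locus was called, with 1.07% of all loci. In PBL against PL no locus was called (4 at an unadjusted p under 0.05; DESeq2 called 0), against 0.342% of all loci, and 0 member peaks (22 at an unadjusted p under 0.05; DESeq2 called 0), against 0.0826% of all peaks. Tlr4 was nearest, with 108, 122 and 109.9 CPM in PBL, against 124 and 175 CPM in PL (-0.40 ± 0.11, adjusted p = 0.070). Without PL pool 1_2, 5 members were called in PBL against PL (Tlr1, Tlr3, Tlr4, Ticam1 and Ripk2), with 6.86% of all loci. In LBL against LL no locus was called (4 at an unadjusted p under 0.05; DESeq2 called 0), against 0.0947% of all loci, and 0 member peaks (8 at an unadjusted p under 0.05; DESeq2 called 0), against 0.0506% of all peaks.

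Of 56 other genes of the pathway, 53 had a peak and 52 were tested. In PL against PP 5 rose and 2 fell, which is 13.5% of the 52 against 10.6% of all loci, and in PBL against PBP 4 rose and 1 fell, which is 9.62% against 7.47%. Map3k8, the kinase TPL2 that drives ERK activation below TLRs, rose by 1.60 ± 0.12 in PL against PP (adjusted p = 3.2e-17) and 1.24 ± 0.10 in PBL against PBP (adjusted p = 2.8e-16), and the NF-kB cofactor gene Nfkbiz rose by 0.44 ± 0.11 and 0.43 ± 0.09 (adjusted p = 0.0032 and 5.6e-04). The ubiquitin-conjugating enzyme gene Ube2d3 rose by 1.28 ± 0.29 in PBL against PBP (adjusted p = 0.0014). Peli3, a ligase of the Pellino family, fell by 0.87 ± 0.22 in PL against PP (adjusted p = 0.0045), and Sarm1, a TIR-domain protein, by 0.80 ± 0.25 (adjusted p = 0.024). In the averaged effect of earlier LPS 1 of the 52 was called (1.92%, against 1.75% of all loci), Ly86, the partner of the TLR4 homologue CD180, which rose by 0.22 ± 0.06 (adjusted p = 0.040).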

How the data were processed

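The deposited table holds the authors' estimated counts per peak and pool, in steps of 0.5, for 38620 peaks, each with its nearest gene and distance to a start site (mm10). Tools listed in the submitters' processing notes were ChIPseeker 1.38 (annotation of peaks), MACS2 2.1.1, HOMER 4.9.1, Bowtie2 2.2.6, cutadapt 1.9.1, bedtools 2.26, deepTools 3.3.0, Picard 1.126 and SAMtools 1.7. The counting tool and any shift of reads for the transposase are not given in the sources used here.

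Counts were summed per gene over peaks within 50 kb, rounded to whole numbers and filtered with edgeR's filterByExpr (minimum count 10), which kept 13734 of 13874 loci. The same filter kept 37516 single peaks. CPM use the TMM-adjusted total of all loci, or of all peaks for single peaks, so a locus with 1 peak has slightly different values on each scale. Tests used edgeR 4.0.16 (quasi-likelihood, robust, 6 group means over 13 libraries, with R 4.3.3 and limma 3.58.1), with Benjamini-Hochberg adjustment over all loci or all peaks and a threshold of 0.05. The code was also run on simulated counts, with the same spread in every library and well-covered loci changed in PL alone. That run does not cover uneven pools such as those of PL. Alternatives were DESeq2 1.42.0, its size factors, no filter, other distances, a replicate block, isolation day, and each pool left out. The pool numbers did not pair the groups (correlations of deviations between -0.021 and 0.21). The members, lists and tests were chosen with earlier results of these data known. Values per library are given for called loci (at most the 6 with the lowest p in each direction) and for 20 members picked by role, and for peaks and other pathway genes at most the 3 with the lowest p in each direction. Further features were chosen after their values were seen. Promoter windows are RefSeq's (GRCm38.p6).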

Additional observations from a re-analysis of the deposited data

How the results depend on the processing

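Counts of called member loci are given here where they moved by over 1.5 times. DESeq2 gave 6 in PL against PP (11 by edgeR) with 4.23% of all loci called, and 2 in PBL against PBP (4) with 3.42%. It gave 4 in LL against PP (9) with 3.17%, and 0 in LBL against PBP (1) with 1.995%. In the averaged first response it gave 7 (14) with 7.35%, and in the averaged effect of earlier LPS 0 (4) with 0.233%. In the test over 6 groups it gave 5 (13) with 5.94%. Isolation day as a term gave 18 in PL against PP, with 20.5% of all loci, and sets PL pool 3_4 alone against PP. Peaks within 1 kb gave 0 in LBL against PBP (0.995% of these loci), 1 in PBP against PP (0.203%) and 1 in the difference of first responses (0.451%). They gave 8 in the averaged first response (9.46%). Peaks within 10 kb gave 2 in LBL against PBL (0.862%) and 9 in the averaged first response (12.7%). The other counts come from alternatives chosen after seeing the data. Distal peaks alone, which left 31 members of 8123 loci, gave 5 in PL against PP (11.3% of these loci called), 3 in LL against PP (12.2%), 2 in LBL against PBP (9.82%), 2 in LBL against PBL (4.08%), 5 and 1 in the 2 averages (22.3% and 5.05%) and 7 over 6 groups (26.5%). Summing the LBL and PP pairs gave fewer in PL against PP and in the averaged effect of earlier LPS, with a smaller share of all loci called in both. With the replicate block, counts moved to 1 in LBL against PBL (1.04% of all loci) and 1 in PBP against PP (0.597%). They moved to 1 in the difference of first responses (1.06%) and from 9 to 12 in LL against PP (9.69%). The pool numbers do not pair the groups. DESeq2's size factors and no filter moved no count this far.

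Leaving out 1 library at a time gave 3 to 20 in PL against PP, 1 to 7 in PBL against PBP, 2 to 13 in LL against PP, 0 to 2 in LBL against PBP, 0 to 3 in LL against PL, 0 to 3 in LBL against PBL, 0 to 1 in PBP against PP, 0 to 5 in PBL against PL, 0 to 9 in the difference of first responses, 0 to 1 in the difference of the effects of earlier LPS, 5 to 17 and 1 to 4 in the 2 averages, and 12 to 20 over 6 groups. A group left with 1 pool is assumed to vary like the others. In each of these comparisons and tests the share of all loci called also moved with these fits. The counts therefore do not describe the members alone. Of the named loci 9 of 43, and of the named peaks 9 of 29, kept their call in every such fit. Directions reversed in 4 cases: the Traf6 locus in PBL against PBP with peaks within 1 kb (-0.20) or 10 kb (-0.21), and, with distal peaks alone, Tlr4 (-0.0042) and Tank (-0.094) in the averaged first response. The cause was not tested, except that the Traf6 peak that was called lies beyond both distances. Groups of 2 or 3 pools, and 927893 counts in the shallowest library, limit what could be called.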
